A study of Mus musculus with 15 samples.

Results

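The interleukin-1 (IL-1) family members measured here were 10 genes, chosen by symbol from the 43629 genes counted in the whole brains of 15 mice. They were the ligands Il33, Il1a, Il1b and Il18, the receptor chains Il1rl1, Il1r1 and Il1rap, the secreted inhibitors Il1rn and Il18bp, and the protease Casp1. All mice were wild-type male C57BL/6J. They were young (3 months, 4 AL and 3 EOD) or old (24 months, 4 AL and 4 EOD), AL being free access to food and EOD every-other-day feeding, called IF in the labels and begun at 2 months of age. Each mouse gave 1 RNA-seq library, and the comparisons asked whether these genes differed with age, with diet, or with age differently on each diet.

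IL-1 family cytokines are alarm signals of tissue damage and infection, and most are made without a conventional secretion signal. IL-33 is stored in the nucleus, in the brain mainly of oligodendrocytes and astrocytes, and is released when cells are damaged, after which it binds ST2 (the product of Il1rl1) together with the accessory chain encoded by Il1rap. IL-1α and IL-1β use the receptor encoded by Il1r1 with the same accessory chain, whereas IL-18 has its own receptor, and the precursors of IL-1β and IL-18 are cut into active cytokines by caspase-1 inside inflammasomes, which microglia assemble.

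Totals lay between 5198748 and 13610729 counts per library (median 9886766). Young AL mouse 3 stood apart, with the highest total, 17280 genes with a count against 19054 to 20880 in the other 14 mice, and a median correlation of 0.957 with the other libraries against 0.980 to 0.987. Results are therefore given with and without this mouse. The libraries came from 3 sequencing lanes, and lane 3 held no young EOD mouse. Markers of neurons, oligodendrocytes, astrocytes, microglia, endothelium and choroid plexus, 8 genes for each, were detected in every group.

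Of the 10 genes, 6 were measured well enough to compare groups, and 4 were too low to judge. A gene was taken as too low where it failed the expression filter of edgeR or had a median raw count under 10 over the 15 mice. Il33, Il1rap, Il1r1, Il18, Il18bp and Casp1 were judged, whereas Il1rl1, Il1a, Il1b and Il1rn were not. The level per exon length, in reads scaled to the library total and to each kilobase of exon (RPKM, the only scale on which genes are compared here), was highest for Il33, with a median over 15 mice of 40.1 (range 25.8 to 52.3). Il18 followed with 18.7 RPKM (13.0 to 26.1) and Il1rap with 5.35 RPKM (4.72 to 6.11). In each of the 15 mice Il33 was above Il18, and Il18 above Il1rap. The order of Il18 and Il1rap depends on their counted exon lengths, 714 and 11360 bases. Casp1 had a median of 2.39 RPKM, Il1r1 of 1.05 RPKM and Il18bp of 0.901 RPKM, and their ranges overlapped. The 4 genes too low to judge had medians of 0.436 RPKM (Il1a), 0.132 RPKM (Il1b), 0.0558 RPKM (Il1rl1) and 0 RPKM (Il1rn). The ligand Il33 was thus far more abundant than its own receptor chain Il1rl1, whose highest value in any mouse was 0.119 RPKM.

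**Figure D1:**
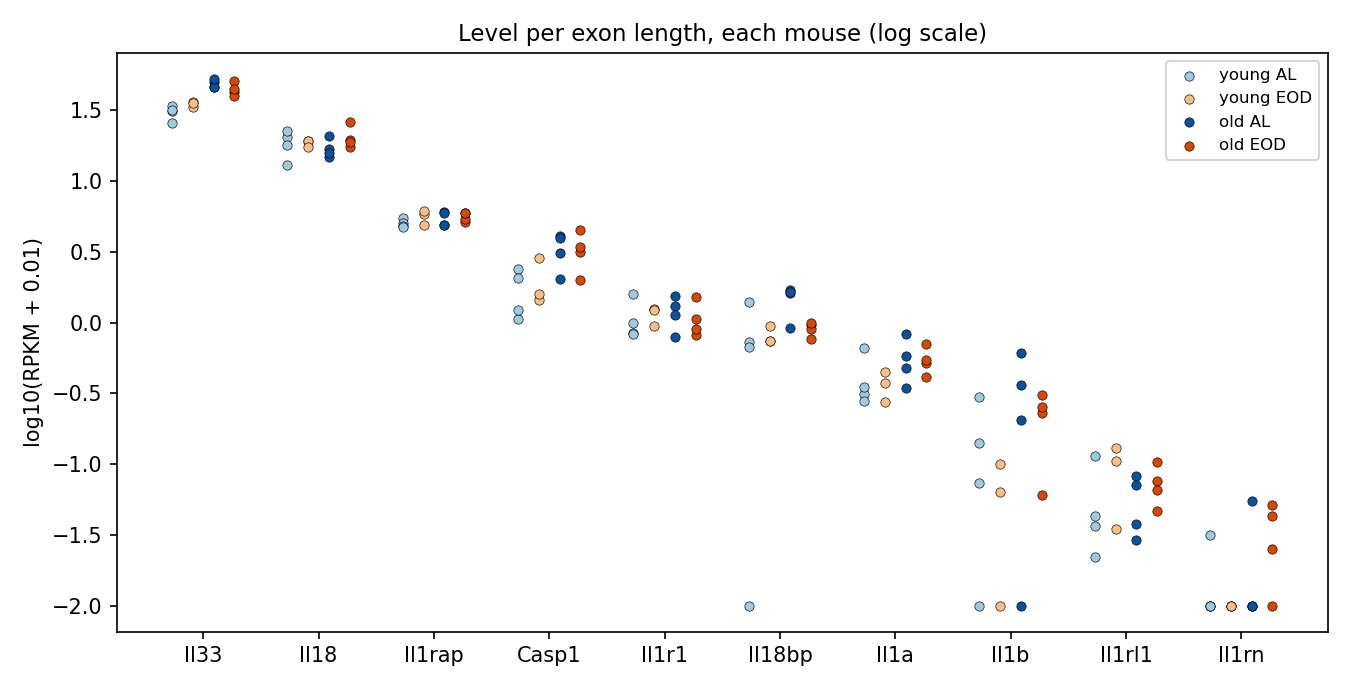
Level per exon length of the 10 genes, as log10(RPKM + 0.01) on the vertical axis, 1 point per mouse coloured by group, with genes ordered by their median. Il33 lay highest (median 40.1 RPKM) and Il1rn lowest, with points at -2 marking mice without a count.

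Il33 passed the test for age in AL mice and averaged over diets, and Casp1 only averaged over diets, close to the threshold. The promoters of these genes, the start regions of their RNAs, are shown for that reason. RefSeq (GRCm38.p6) lists 2 starts for Il33, 1 directly beside the first base of the counted gene and 1 inside it, and the counts do not separate RNA from the 2 starts. Each window holds 250 bases before and 50 after the start, on the plus strand, at chr19:29924863-29925162 and chr19:29945540-29945839 for Il33 and chr9:5298267-5298566 for Casp1. Capitals mark matches to 4 motifs of inflammatory transcription factors on either strand, kappa B (GGGNNNNNCC), GAS (TTCNNNGAA), ISRE (TTTCNNTTTC) and AP-1 (TGANTCA).
Il33, upstream start: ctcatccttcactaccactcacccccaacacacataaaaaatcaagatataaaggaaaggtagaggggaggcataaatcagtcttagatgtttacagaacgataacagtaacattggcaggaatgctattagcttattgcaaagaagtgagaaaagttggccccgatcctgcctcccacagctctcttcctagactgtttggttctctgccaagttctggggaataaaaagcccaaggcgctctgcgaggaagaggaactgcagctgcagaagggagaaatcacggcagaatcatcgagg
Il33, downstream start: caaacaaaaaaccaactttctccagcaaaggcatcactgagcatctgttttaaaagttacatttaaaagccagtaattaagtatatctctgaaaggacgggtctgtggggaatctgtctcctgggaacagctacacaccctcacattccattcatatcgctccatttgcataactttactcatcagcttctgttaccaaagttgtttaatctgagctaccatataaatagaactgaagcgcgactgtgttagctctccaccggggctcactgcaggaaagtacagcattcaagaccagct
Casp1: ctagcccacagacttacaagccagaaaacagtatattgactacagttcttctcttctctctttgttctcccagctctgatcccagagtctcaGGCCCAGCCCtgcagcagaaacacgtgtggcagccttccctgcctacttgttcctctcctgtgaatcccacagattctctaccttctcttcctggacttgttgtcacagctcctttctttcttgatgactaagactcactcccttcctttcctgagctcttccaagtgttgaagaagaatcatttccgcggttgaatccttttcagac
The Il33 windows held none of the 4 motifs, and that of Casp1 held 1 kappa B match beginning 158 bases before the start. Among 32851 RefSeq promoter windows of the same length, 50.8% held a kappa B match, 8.30% a GAS match, 3.44% an ISRE match and 7.81% an AP-1 match. A match is a run of letters and not a measured binding site.

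Il33 (ENSMUSG00000024810, chromosome 19, 29925114 to 29960718 in GRCm38, plus strand) rose with age in AL mice. Its normalised counts (CPM, counts scaled to a common library total with TMM factors) were 98.2, 90.3, 74.4 and 92.2 in the young AL mice. They were 146, 134, 133 and 151 CPM in the old AL mice. Every old AL mouse lay above every young AL mouse, and the lowest value was that of young AL mouse 3. The difference was 1.59-fold, a log2 fold change of 0.67 with a standard error (SE) of 0.0887, and it had an FDR of 0.000166 (edgeR quasi-likelihood test, Benjamini-Hochberg adjustment over 15864 genes). It ranked 20 by p among all genes tested. Without young AL mouse 3 the log2 fold change was 0.60 and the edgeR FDR 0.000378. Il33 was the 1 member of 6 that passed FDR 0.1 for age in AL mice, against a background of 1.09% of all genes tested. The members were chosen with earlier results of these data known, so this count is not a test of the set. Within lanes, the old minus young difference of mean log2 CPM was 0.63 in lane 1, 0.84 in lane 2 and 0.71 in lane 3. These values rest on 1 old and 2 young mice in lane 1, 2 and 1 in lane 2, and 1 and 1 in lane 3. The 1 young mouse in lane 2 was young AL mouse 3.

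In EOD mice Il33 was also higher in old mice, but the difference did not pass the test over all genes. The young EOD mice had 105, 95.8 and 104 CPM. The old EOD mice had 122, 116, 147 and 129 CPM. Again every old mouse lay above every young mouse. The log2 fold change was 0.34 (SE 0.0964, 95% interval 0.14 to 0.54), with an unadjusted edgeR p of 0.00214 and an FDR of 0.357. Without young AL mouse 3 the log2 fold change was 0.34 and the edgeR FDR 0.113. None of the 6 judged members passed in EOD mice (background 0.290%), and DESeq2 called 0. An unadjusted edgeR p under 0.05 was found for 2 of the 6, against 5.74% of all genes tested. The within-lane difference of mean log2 CPM was 0.22 in lane 1 (1 old and 1 young mouse) and 0.22 in lane 2 (1 and 2). Lane 3 gave no value because it held no young EOD mouse. It held old EOD mice 3 and 4, the 2 highest old EOD mice in Il33 (147 and 129 CPM). Averaged over both diets, Il33 rose by a log2 fold change of 0.50 (SE 0.0656, edgeR FDR 7.39e-05), and the FDR was 4.77e-05 without young AL mouse 3.

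The order of the group means of Il33 was young AL (88.8 ± 10.2 CPM, SD, n = 4), young EOD (101 ± 5.02, n = 3), old EOD (128 ± 13.5, n = 4) and old AL (141 ± 8.80, n = 4). Neighbours in this order of the same age overlapped. The diet difference had a log2 fold change of 0.20 in young mice (SE 0.0963, 95% interval -0.0037 to 0.40) and of -0.14 in old mice (SE 0.0877, 95% interval -0.32 to 0.05), and neither passed the test. Without young AL mouse 3 the value in young mice was 0.12, with an unadjusted edgeR p of 0.195 against 0.0540 with it. The age difference was smaller in EOD than in AL mice by 0.33 on the log2 scale (SE 0.130), with an unadjusted edgeR p of 0.0183. After adjustment over all genes this interaction did not pass (edgeR FDR 0.9998), and it had an unadjusted edgeR p of 0.0412 without young AL mouse 3.

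**Figure D2:**
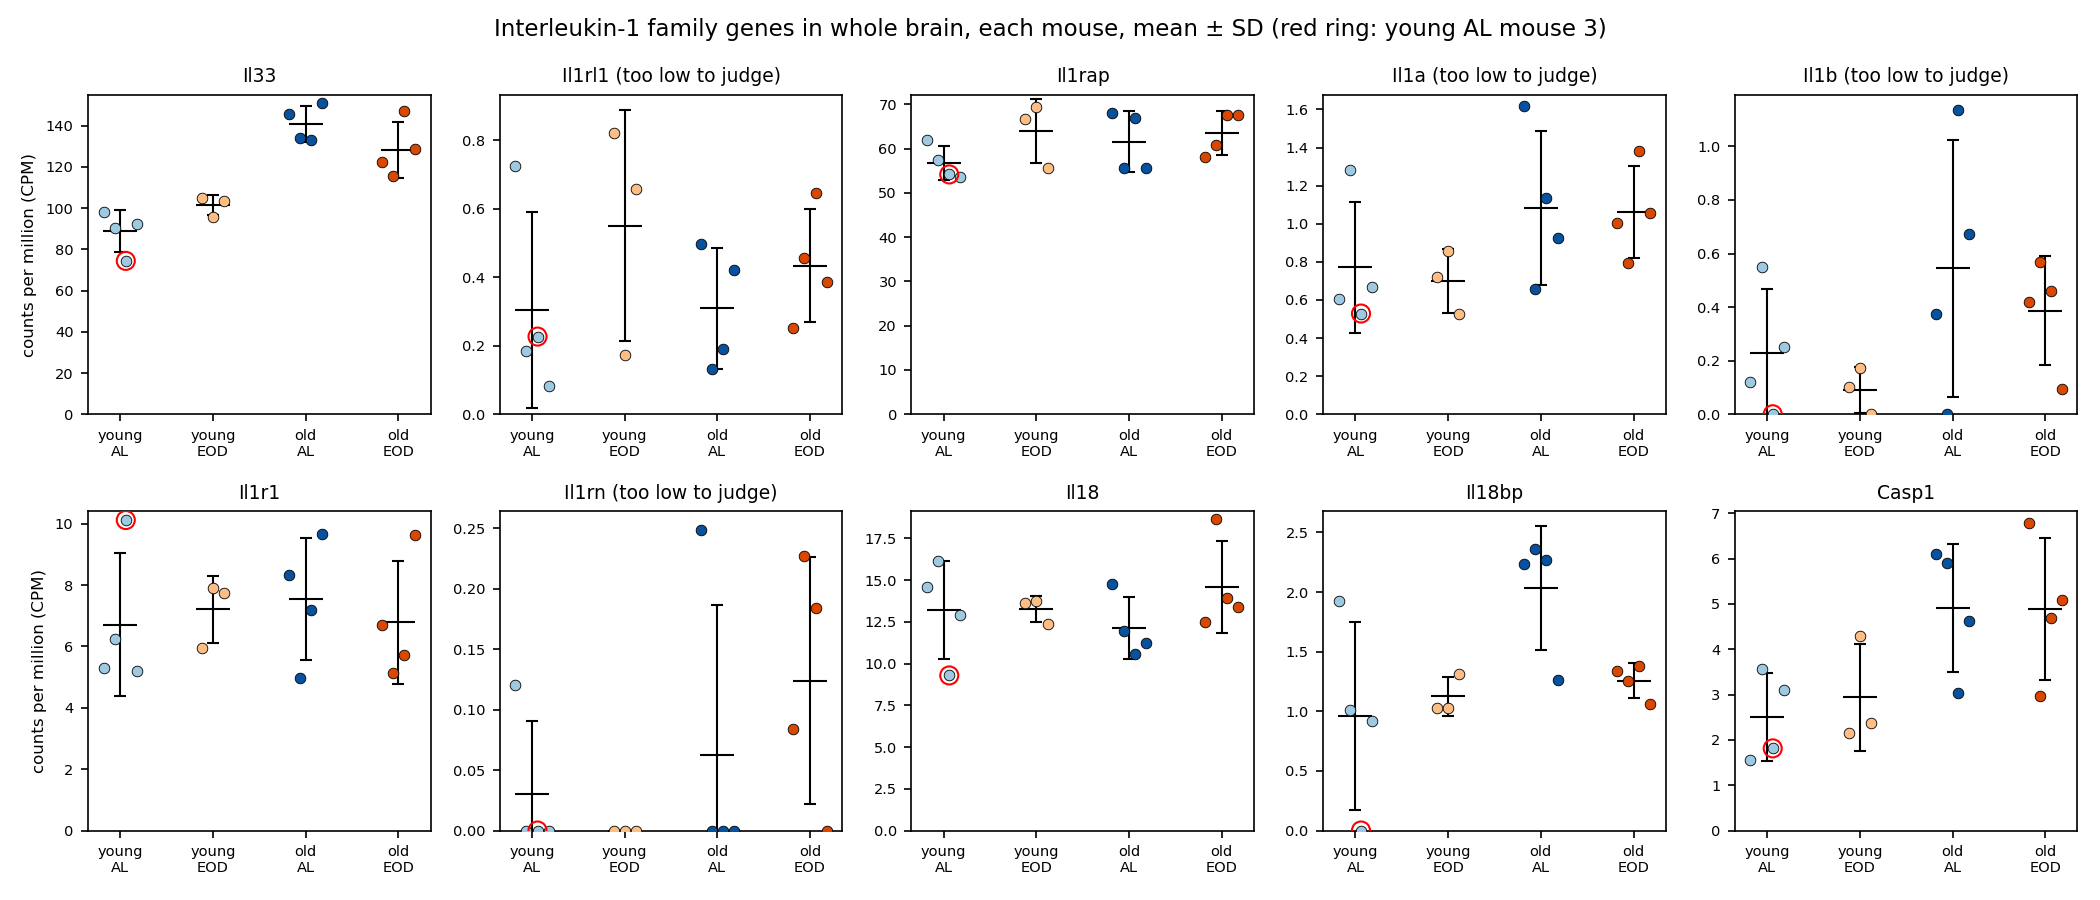
CPM (vertical axis, from 0) of the 10 genes in each mouse by group, with the mean and SD of each group as bars and a red ring around young AL mouse 3. For Il33 the old mice sit between 116 and 151 CPM, above all young mice (74.4 to 105 CPM).

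Because whole brain was sequenced, more cells of a type and more RNA per cell cannot be told apart, so Il33 was set against markers of the cells known to contain it. The summed CPM of 8 oligodendrocyte markers ranged from 5932 to 7042 in young AL mice and from 6963 to 7756 in old AL mice. That of 8 astrocyte markers ranged from 5237 to 5826 and from 5587 to 6166. For age in AL mice 1 of 8 markers in each list passed FDR 0.1 (background 1.09%). Gfap, the intermediate filament of astrocytes, had a log2 fold change of 1.22 (edgeR FDR 1.71e-09). Mbp, a myelin protein, had 0.39 (edgeR FDR 0.0515, and 0.156 without young AL mouse 3). Of the 8 oligodendrocyte markers 6 were higher in old AL mice (median log2 fold change 0.15), and of the 8 astrocyte markers 4 (median 0.01). Relative to the oligodendrocyte sum, log2 Il33 was -6.16, -6.05, -6.32 and -6.10 in the young AL mice. It was -5.58, -5.73, -5.87 and -5.57 in the old AL mice, so the groups did not overlap. The mean difference was 0.47, with a two-sided exact permutation p of 0.0286, the smallest p that 4 against 4 mice allow. Relative to the astrocyte sum the mean difference in AL mice was 0.60, with the same exact permutation p of 0.0286 and again no overlap. Adjusted over these 2 tests both exact permutation p-values stayed at 0.0286. Because Il33 alone already separated these groups, the 2 p-values are not evidence apart from that difference. In EOD mice the differences were 0.32 per oligodendrocyte sum and 0.36 per astrocyte sum, given as values without a test. The summed CPM of 8 microglia markers had a mean of 359 in young AL and 432 in old AL mice. Relative to this sum the Il33 difference was 0.40 in AL and 0.02 in EOD mice, also without a test. Young AL mouse 3 adds to the AL value, with the lowest log2 ratio of the young AL mice (-2.37, group mean -2.02). Set against the endothelial and neuron sums, the differences were 0.65 and 0.78 in AL mice and 0.29 and 0.36 in EOD mice. For the choroid plexus and blood or infiltrating cell sums they were 0.25 and 0.28 in AL mice, -0.23 and -0.14 in EOD mice. These too are values without a test. The part of these marker sums in the Il33 difference in EOD mice was not tested.

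**Figure D3:**
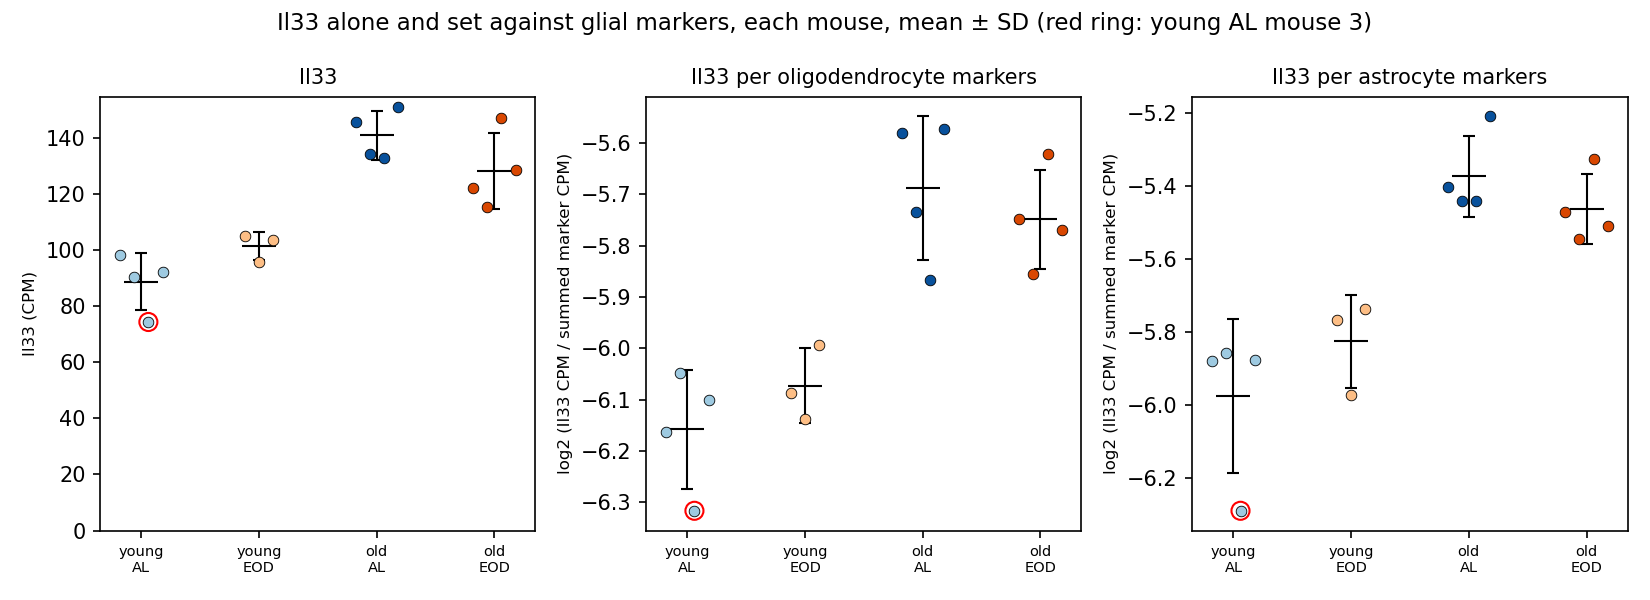
Il33 in CPM (left, from 0) and the log2 ratio of Il33 to the summed CPM of oligodendrocyte markers (middle) and astrocyte markers (right) in each mouse, with group mean and SD and a red ring around young AL mouse 3. The old AL mice lie above the young AL mice in all 3 panels, by a mean of 0.47 per oligodendrocyte sum and 0.60 per astrocyte sum.

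Casp1 (ENSMUSG00000025888, chromosome 9, 5298517 to 5307265, plus strand), which encodes caspase-1, rose with age averaged over both diets. The young AL mice had 1.57, 3.57, 1.81 and 3.10 CPM and the young EOD mice 2.16, 4.30 and 2.37 CPM. The old AL mice had 6.09, 5.90, 3.03 and 4.62 CPM and the old EOD mice 6.78, 2.96, 4.70 and 5.10 CPM. Young and old overlapped on both diets, through old AL mouse 3 and old EOD mouse 2, and these values rest on 13 to 81 counts per mouse. The averaged difference was 1.84-fold, a log2 fold change of 0.88 (SE 0.236, edgeR FDR 0.0692), and it had an FDR of 0.0810 without young AL mouse 3. Il33 and Casp1 were the 2 of 6 judged members that passed in this contrast (background 2.30%). Within AL mice alone the Casp1 log2 fold change was 0.97 (SE 0.316, edgeR FDR 0.251), and within EOD mice it was 0.79 (SE 0.351, edgeR FDR 0.835).

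The call on Casp1 was close to the threshold. It was lost when any 1 of 8 mice was left out (young AL 1, young EOD 1 and 3, old AL 1 and 2, old EOD 1, 3 and 4), with edgeR FDR values over all 15 such fits of 0.0470 to 0.235, and it was lost with lane in the model (edgeR FDR 0.146). Within lanes the old minus young difference of mean log2 CPM was 1.36, 1.22 and 0.58 in AL mice. It was 1.65 and -0.11 in EOD mice for lanes 1 and 2. Each of these values rests on 1 or 2 mice per age. The summed CPM of 8 microglia markers was 336 to 385 in young AL and 339 to 365 in young EOD mice. It was 416 to 466 in old AL and 409 to 455 in old EOD mice. Young and old did not overlap in this sum on either diet, whereas they overlapped for Casp1. Csf1r, the receptor on which microglia depend, and Cx3cr1, their fractalkine receptor, rose averaged over diets (log2 fold change 0.20 with an edgeR FDR of 0.0605, and 0.23 with an edgeR FDR of 0.0728). The part of these markers in the Casp1 difference was not tested.

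Il18bp, the soluble inhibitor of IL-18, had 0 to 18 counts per mouse. It was at 1.93, 1.01, 0 and 0.920 CPM in young AL mice, where the 0 is young AL mouse 3, and a count of 0 in that library allows up to 0.227 CPM. The old AL mice had 2.24, 2.36, 2.27 and 1.26 CPM. The young EOD mice lay between 1.03 and 1.31 CPM and the old EOD mice between 1.06 and 1.38 CPM, and the 3 highest old AL values exceeded every value of the other groups. The log2 fold change for age in AL mice was 1.12 (SE 0.535, unadjusted edgeR p 0.0480, FDR 0.524), and it was 0.67 (FDR 0.737) without young AL mouse 3. Il18 itself, made as a precursor by many cell types, did not pass in any contrast. Its CPM lay between 9.29 and 16.1 in young AL, 12.4 and 13.8 in young EOD, 10.6 and 14.8 in old AL, and 12.5 and 18.7 in old EOD mice. The log2 fold change for age in AL mice was -0.11 (95% interval -0.46 to 0.24), and -0.25 without young AL mouse 3, which had the lowest value.

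The receptor chains did not pass the test either. Il1rap had 53.6 to 61.9 CPM in young AL, 55.7 to 69.5 in young EOD, 55.5 to 68.0 in old AL and 58.0 to 67.7 in old EOD mice. Its age difference in AL mice was 0.11 on the log2 scale, with a 95% interval of -0.08 to 0.31, and in EOD mice -0.01 (95% interval -0.22 to 0.21). Leaving out 1 mouse gave 0.059 (without old AL mouse 1) to 0.17 in AL mice. Il1r1 had 10.1 CPM in young AL mouse 3 and 5.19 to 6.23 CPM in the other young AL mice. The other groups spanned 4.99 to 9.67 CPM. Accordingly its log2 fold change for age in AL mice was 0.17 (95% interval -0.34 to 0.68, edgeR FDR 0.878) with that mouse and 0.46 (edgeR FDR 0.725) without it. It was 0.020 without old AL mouse 4. Il1rap shares exon sequence with a gene on the opposite strand, Gm20319, and the counting used strand.

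**Figure D4:**
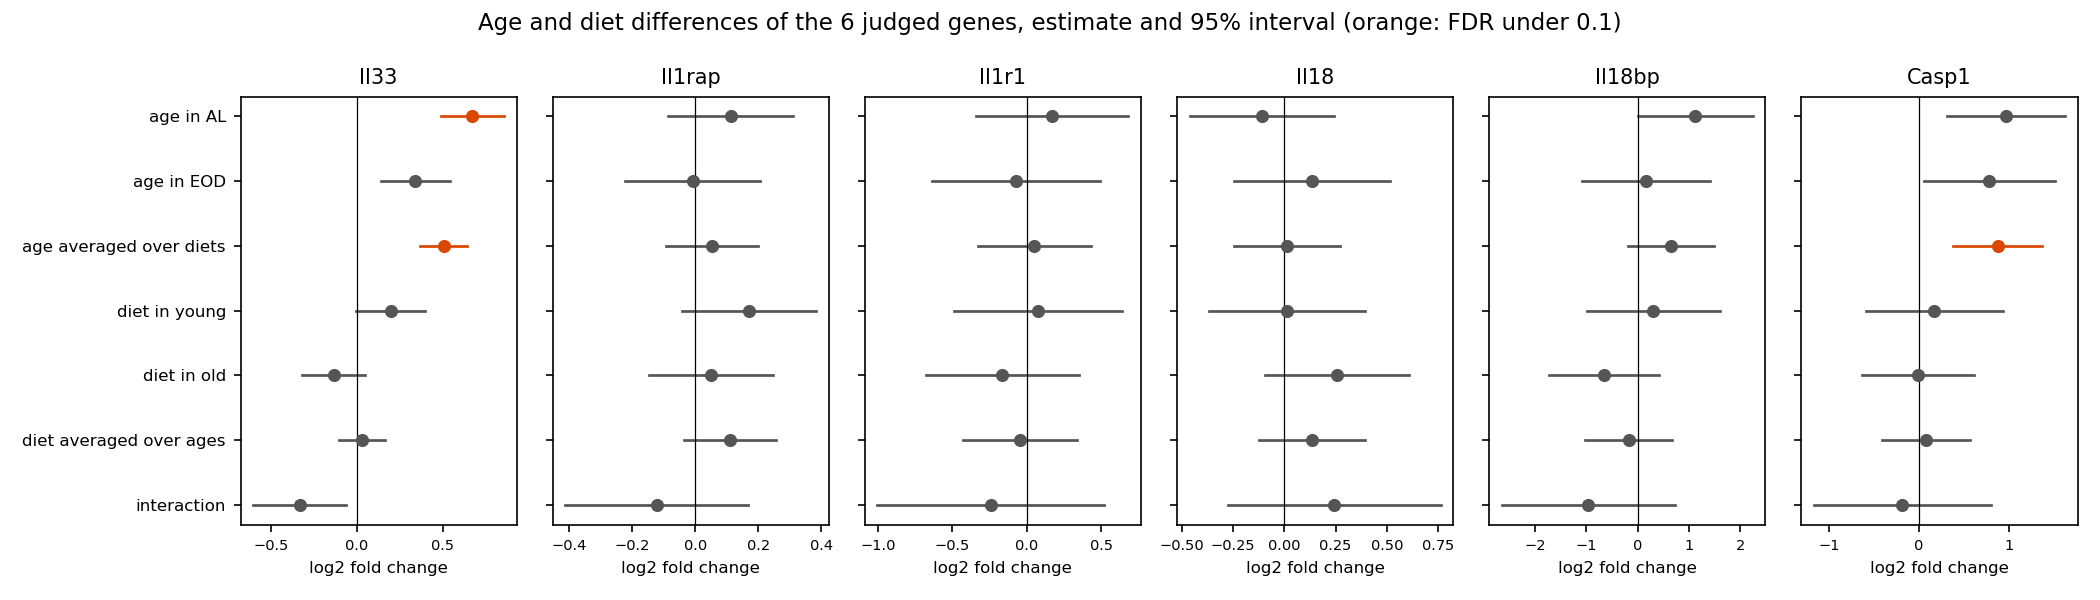
Log2 fold change (horizontal axis) of the 6 judged genes in the 7 contrasts, as the estimate with its 95% interval, orange where the edgeR FDR was under 0.1. The orange estimates are Il33 for age in AL mice (0.67) and averaged (0.50) and Casp1 for age averaged (0.88).

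The diet made no difference that passed the test in any judged member. By edgeR 0 of 6 passed for diet at either age, for diet averaged over ages and for the interaction, where the background was 0% of 15864 genes in each. DESeq2 also called 0 members in these contrasts. At an unadjusted edgeR p under 0.05 there were 0, 0, 0 and 1 members, the 1 being Il33 in the interaction, where all genes gave 4.14%, 2.58%, 4.51% and 2.28%. Over the 6 members the diet log2 fold changes ranged from 0.01 to 0.31 in young mice and from -0.66 to 0.26 in old mice, the lowest and highest in old mice being those of Il18bp (95% interval -1.73 to 0.42) and Il18 (95% interval -0.10 to 0.61). The absence of negative values in young mice rested on young AL mouse 3, without which they ran from -0.14 (Il18bp) to 0.35 (Il1r1), with Il18 at -0.13. Of the 6 members 5 were higher in old AL than in young AL mice, with a median log2 fold change of 0.42 against -0.01 over all genes tested. In EOD mice 4 of 6 were higher, with a median of 0.15 against 0.00 over all genes. Of these age differences only that of Il33 in AL mice passed FDR 0.1.

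The remaining 4 members could not be compared. Il1rl1, the IL-33 receptor ST2, had 55 counts in all 15 mice together, 1 to 8 per mouse. Its counts were 6, 2, 3 and 1 in young AL, 8, 1 and 5 in young EOD, 4, 1, 1 and 5 in old AL, and 3, 4, 7 and 4 in old EOD mice. Il1a had 130 counts in all, 4 to 15 per mouse, with 5, 14, 7 and 8 in young AL, 7, 5 and 4 in young EOD, 13, 5, 6 and 11 in old AL, and 12, 7, 15 and 11 in old EOD mice. These counts overlapped between all groups.

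Il1b, the inflammasome product, had 45 counts in all, with 1, 6, 0 and 3 in young AL, 1, 1 and 0 in young EOD, 3, 0, 6 and 8 in old AL, and 5, 5, 5 and 1 in old EOD mice. Il1rn, the IL-1 receptor antagonist, had 8 counts in all and none in 10 of 15 mice. The 5 mice with a count were young AL mouse 1 with 1, old AL mouse 1 with 2, and old EOD mice 1, 2 and 3 with 1, 2 and 2. At these depths 0 counts allow from 0.227 to 0.567 CPM per library, so differences between groups were not detectable. Il1a and Il1b share exon sequence with genes on the opposite strand (Gm14023 and Il1bos).

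The receptor genes stand next to each other in the genome and differed in level. Il1r2, Il1r1, Il1rl2, Il1rl1, Il18r1 and Il18rap lie on chromosome 1 between 40074079 and 40551705, all on the plus strand. Of these 6 only Il1r1 and Il1rl2 passed the expression filter. Il1r2, a decoy receptor, had 0 to 19 counts per mouse, the 19 in young AL mouse 3. The IL-18 receptor chains Il18r1 and Il18rap had at most 2 and 4 counts in any mouse. The ligand Il33 lies alone on chromosome 19, whereas Il1rn lies on chromosome 2 beside the IL-36 genes, and Il1a and Il1b lie side by side farther along chromosome 2, between 129299610 and 129371139.

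The wider pathway was followed through 65 further genes, of which 44 passed the expression filter. For age in AL mice 2 rose and 0 fell, in EOD mice 0 passed by edgeR with 3 at an unadjusted p under 0.05, and averaged over diets 3 rose and 1 fell. Over all genes tested 1.09%, 0.290% and 2.30% passed in these contrasts, and 5.74% had an unadjusted p under 0.05 in EOD mice. The median log2 fold change of the 44 was 0.01 in AL mice against -0.01 over all genes tested, and 0.02 in EOD mice against 0.00. None of the 5 other ligands of the family (IL-36 genes and Il1f10) passed the filter, with at most 2 counts in a mouse. None of the 24 adaptors, kinases and NF-kB genes passed for age in any of these contrasts, and the smallest p among them for age averaged was that of Irak2, a kinase recruited to the IL-1 receptor (log2 fold change 0.29, edgeR p 0.0266, FDR 0.334).

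Among 16 targets induced by IL-1 and NF-kB, 8 were tested, and Lcn2 and Csf1 rose with age in AL mice. Lcn2, an iron-binding acute phase protein, had 3, 3, 0 and 4 counts in young AL mice and 8, 5, 64 and 106 in old AL mice. That was 12.1 and 8.91 CPM in old AL mice 3 and 4 and under 1 CPM in the other old AL mice. The log2 fold change was 4.53 (SE 0.870, edgeR FDR 0.00929), and this fitted value depends on very low young counts. In EOD mice the counts were 1, 0 and 3 in young and 15, 5, 1 and 9 in old mice. In old AL mouse 3, S100a9, a calgranulin of neutrophils and other myeloid cells, had 49 counts, against 1 to 11 in the other old AL mice. Averaged over diets S100a9 had a log2 fold change of 2.92 (edgeR FDR 0.0735, and 0.125 without young AL mouse 3). The part of blood or infiltrating cells in these values was not tested, and their 10 markers summed to 27.7 to 49.0 CPM in young AL and 42.8 to 60.9 CPM in old AL mice.

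Csf1, the growth factor of microglia, had 20.4, 20.6, 16.3 and 21.5 CPM in young AL mice and 26.7, 28.2, 33.7 and 27.2 CPM in old AL mice. The groups did not overlap, and the log2 fold change was 0.55 (SE 0.113, edgeR FDR 0.0162, and 0.0396 without young AL mouse 3). The call was lost when only the AL groups were fitted (log2 fold change 0.55, edgeR FDR 0.105). In EOD mice it was 23.7, 25.8 and 28.4 CPM in young and 25.1 to 29.4 CPM in old mice, which overlapped, with a log2 fold change of 0.08 (edgeR FDR 0.995).

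Averaged over diets, 2 more genes passed close to the threshold. Pycard, the adaptor ASC that links inflammasome sensors to caspase-1, was the 1 of 8 tested inflammasome genes that passed (log2 fold change 1.06, SE 0.288, edgeR FDR 0.0699), with 5 to 37 counts per mouse. The call was lost when any 1 of 8 mice was left out, with an edgeR FDR of up to 0.247. Il1rapl1, an IL-1 receptor-like protein of synapses, was the 1 gene that fell (log2 fold change -0.34, SE 0.0943, edgeR FDR 0.0808). Its FDR was 0.138 without young AL mouse 3, which had the second highest value (46.8 CPM), and up to 0.245 when another mouse was left out. The call on Csf1 averaged over diets (log2 fold change 0.32, edgeR FDR 0.0613) had an edgeR FDR of up to 0.210 when 1 mouse was left out, and that on Lcn2 of up to 0.118 in 13 of 15 such fits. Without old AL mouse 4 or old EOD mouse 1, Lcn2 did not pass the expression filter and was not tested.

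**Figure D5:**
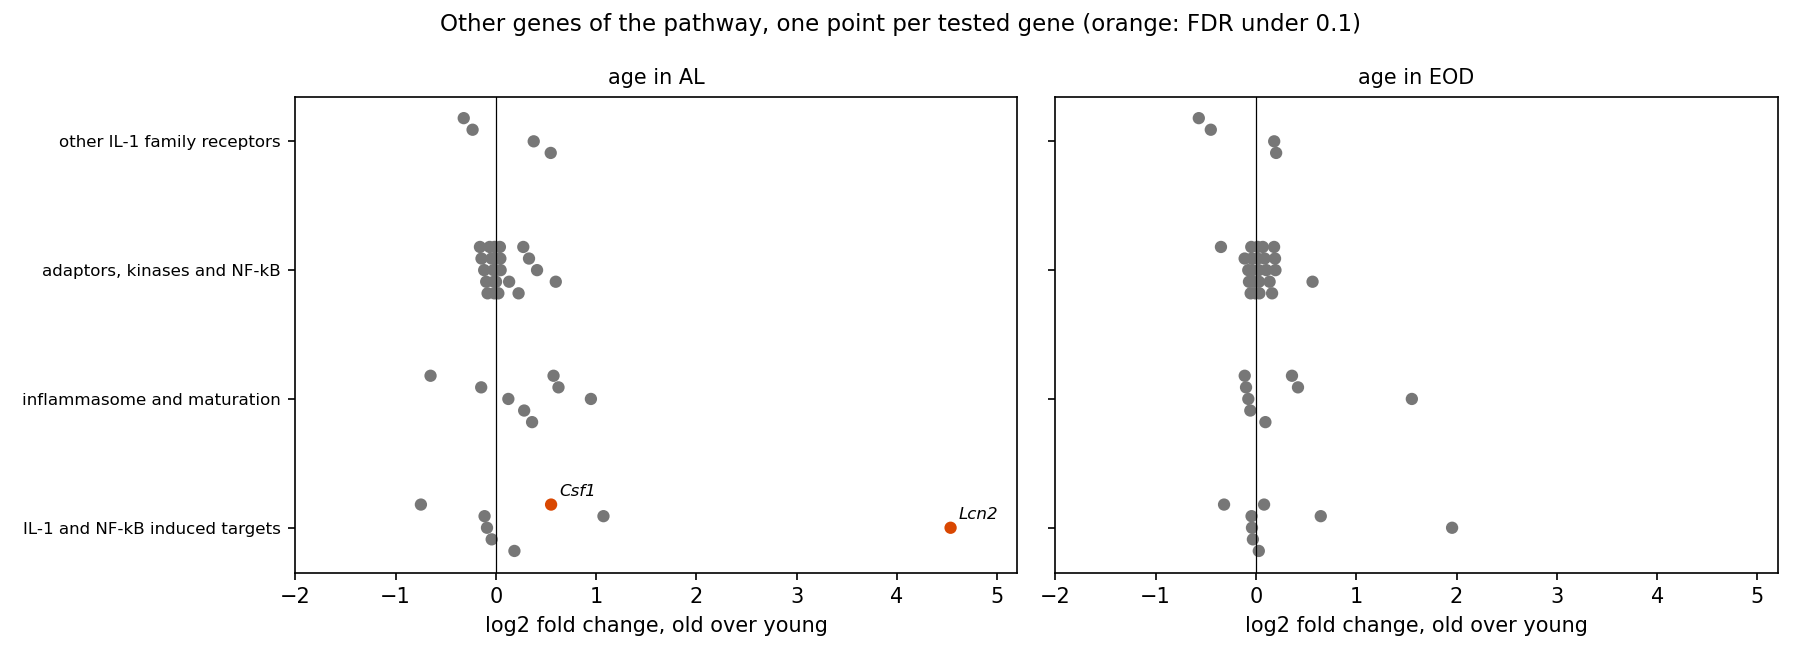
Log2 fold change of old over young (horizontal axis) for the tested pathway genes in AL mice (left) and EOD mice (right), 1 point per gene in 4 lists, orange where the edgeR FDR was under 0.1. Lcn2 (4.53) and Csf1 (0.55) are orange in AL mice, and no gene is in EOD mice.

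The genes whose log2 CPM was most like that of Il33 over the 15 mice, among the 14119 genes that averaged 1 or more on the log2 CPM scale, were Clec7a (Pearson r 0.951), Pcdhga2 (0.939), Gatm (0.937), Fcgr2b (0.927) and Lyz2 (0.923). Clec7a is a pattern receptor of myeloid cells, Gatm an enzyme of creatine synthesis, Fcgr2b an inhibitory Fc receptor, and Lyz2 a lysozyme. Pcdhga2 is one of a cluster of protocadherin genes that share exons, so its count is uncertain. Across the deviations from group means, which leave out the differences between groups, r was 0.74, 0.72, 0.81, 0.62 and 0.58 in the same order, and without young AL mouse 3 r over 14 mice was 0.902 to 0.932. Among the members, r with Il33 over 15 mice was 0.69 for Il18bp, 0.67 for Casp1, 0.37 for Il1rap, 0.08 for Il18 and 0.02 for Il1r1. Across the deviations from group means it was 0.61, 0.10, 0.25, 0.32 and -0.25 in the same order. Without young AL mouse 3 it was 0.52, 0.59, 0.22, -0.34 and 0.35 over 14 mice. These correlations are descriptions over mice that share the age and diet groups.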

How the data were processed

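The deposited values were counts per gene, without normalization, from 15 whole-brain libraries of 15 mice. The authors trimmed 50-base reads, aligned them with STAR to Ensembl GRCm38 and counted reads of mapping quality 5 or more on release 79 genes by strand with featureCounts 1.5.0-p1. Symbols were matched by Ensembl identifier for 42462 of 43629 genes. Nothing in the sources ties same-numbered mice, and p-values measure the spread between mice.

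Of the genes, 15864 passed filterByExpr. The test was that of edgeR 4.0.16 under R 4.3.3 (TMM, quasi-likelihood on 4 group means, Benjamini-Hochberg adjustment, FDR under 0.1). SE was the log2 fold change, without its sign, over the root of F. CPM were scaled to the total over the genes tested times its TMM factor, and RPKM also to exon length. Correlations were of log2 CPM (prior count 2). Il33 per marker sum was compared by an exact permutation test. Alternatives were every gene with at least 1 count, a minimum of 10 counts in all mice, DESeq2 1.42.0, RLE factors, a threshold of FDR 0.05, a replicate block, lane as covariate, a fit of the compared groups alone, and dropping each mouse. The fits were checked on simulated counts, and no 2 libraries held identical values.

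The members and gene lists were chosen with earlier results of these data known. Named beside the 10 members were, of each list, at most 6 genes past FDR 0.1 for age or else the gene with the smallest p, and the 5 genes most correlated with Il33. An item that this rule names is not reported here. Lists without a passing gene were led by Irak2, Ly6c1 (endothelium, edgeR FDR 0.277 for age averaged), Syt1 (neurons, 0.411) and Ttr (choroid plexus, 0.302). Counting error sets the limit for low genes, since 1 count was worth 0.0755 to 0.189 CPM.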

Additional observations from a re-analysis of the deposited data

Results flagged for a closer look

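Of 24 groups checked for a single far value, 3 held one, where chance gives about 1 in 20. For Il18bp, old AL mouse 4 had 1.26 CPM and the other old AL mice 2.24 to 2.36 CPM. For Il33 per astrocyte marker sum, young AL mouse 3 had a log2 ratio of -6.29 and the other young AL mice -5.88 to -5.86. For the same ratio, old AL mouse 4 had -5.21 and the other old AL mice -5.44 to -5.40. The first and last of these are the same mouse, and young AL mouse 3 also stood apart as a library.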

How the results depend on the processing

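Il33 stayed called for age in AL mice and averaged over diets under every alternative and every mouse left out, with a log2 fold change of 0.60 to 0.73 and 0.47 to 0.53. With every gene of at least 1 count, all 10 members were tested. Then 2 members were called for age in AL mice (Il33 and Casp1, the latter at an edgeR FDR of 0.0523). In EOD mice 1 was called (Il33, edgeR FDR 0.0943). There 444 and 100 of 26269 genes were called for age in AL and EOD mice, against 173 and 46 of 15864 with filterByExpr. For age in EOD mice Il33 had, across the alternatives, a log2 fold change of 0.23 to 0.34. Its FDR by edgeR or DESeq2 there reached 0.825, and its edgeR FDR reached 0.99997 with 1 mouse left out. For age averaged over diets 1 member, Il33, was called at an FDR of 0.05, with the replicate block (Casp1 at an edgeR FDR of 0.117) and with the lane as covariate, and leaving out 1 mouse gave 1 to 2. In that contrast Pycard, Csf1 and Il1rapl1, whose alternatives were chosen after seeing the data, were also lost under these 3 settings. The cause was not tested. In the diet contrasts and the interaction the count stayed at 0.

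The replicate block gave 0.47 and 0.60 for Il33 per oligodendrocyte and per astrocyte sum, each at an exact sign-flip p of 0.125, the smallest that 4 paired differences allow. Leaving out 1 mouse gave 0.42 to 0.53 and 0.50 to 0.64, where 3 against 4 mice cannot pass. Same-numbered mice did not deviate together (r -0.113 to 0.113 over 21 pairs), so the numbers are not taken to pair the mice. Near 0, leaving out 1 mouse turned the sign of Il18 for age in AL mice (-0.25 to 0.0036) and of Il33 for diet averaged over ages (-0.0081 to 0.056).

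Over all genes, 173, 46 and 365 were called for age in AL, in EOD and averaged. With every gene of at least 1 count these were 444, 100 and 653, with 26, 27, 65 and 26 for diet in young, in old, averaged and the interaction. For age in AL the groups alone gave 86, for EOD DESeq2 gave 72, and for age averaged an FDR of 0.05 gave 229 and lane 237. DESeq2 gave 1 gene for diet in young and lane 2 for diet in old. Leaving out 1 mouse gave 102 to 221, 19 to 76 and 216 to 425. Low counts limit Il18bp, Casp1 and Pycard.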
